A study of Mus musculus with 48 samples.

Results

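The genes described here are 10 transcription factor genes of the B lineage, Ebf1, Pax5, Foxo1, Bach2, Irf8, Pou2af1, Bcl11a, Lef1, Sox4 and Myb. They were taken by gene name from a table of 21025 gene models, where each of the 10 names matched 1 model. Their RNA was measured by sequencing in 30 libraries of mouse B-cell precursors, as RPKM, reads scaled by gene model length and by the mapped reads of the library. RPKM is a value per length, so levels of different genes can be set side by side.

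The B lineage is built in steps. EBF1, together with E proteins and FOXO1, commits lymphoid progenitors to the B-cell fate and turns on Pax5, and Pax5 then holds that identity by activating B-cell genes and repressing genes of other lineages. FOXO1 drives the recombinase genes Rag1 and Rag2, BACH2 represses the plasma cell program, IRF8 acts in B cells and in monocytes and dendritic cells, and POU2AF1 (OBF-1) is a B-cell coactivator that joins the octamer factors. BCL11A, LEF1, SOX4 and MYB are needed by early lymphoid precursors. Ikaros, the product of Ikzf1, is a zinc finger regulator of lymphoid development. Most of the libraries compare controls with cells in which Ikzf1 was deleted or knocked down.

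All cells were from C57BL/6 mice, and the labels give no age. The control pro-B cells were Ikzf1(fl/+) Cd79a(Cre/+), with 1 floxed and 1 intact Ikzf1 allele, and the deleted pro-B cells were Ikzf1(fl/-) Cd79a(Cre/+), in which the remaining allele is the floxed one. Both carried the Cre recombinase in the Cd79a gene, which is expressed in the B lineage, so control and deleted cells share that allele. The Cre can delete the floxed allele of the controls too, and titles of chromatin samples in the series give Ikzf1(∆/+) pro-B cells. Where the Cre has deleted the floxed allele, the deletion comparisons thus set cells with 1 intact allele against cells with no intact allele. The labels of the RNA libraries do not say how complete the deletion was. This pair of genotypes was measured in total pro-B cells, in pro-B cells with high c-Kit (the receptor of stem cell factor), and in pro-B cells that also carried Rag2(-/-), which cannot rearrange their immunoglobulin genes, with 2 libraries per group. A further 2 libraries were of wild-type pre-B cells, the next stage, which carried neither Cre nor a floxed allele. Cultured pre-pro-B cells of genotype Ebf1(-/-) lack EBF1 and stop before B-lineage commitment. They carried an empty vector, a Ren713 control, or the Ikaros knock-down constructs Ik4056 or Ik2709, with 4 libraries each. Libraries are named below by group and replicate.

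The implied depth, read from the step between low RPKM values, was 2.3 to 35.8 M reads (mega, the SI prefix) in the 26 libraries where it could be resolved. It was lowest in c-Kit-high control replicate 2, at 2.3 M, and could not be resolved in c-Kit-high control replicate 1, c-Kit-high deleted replicate 2 and both pre-B libraries, where more than 1 step size was present. Ikzf1 itself read 59.2 and 56.4 RPKM in total pro-B controls and 45.3 and 48.9 in deleted libraries, a difference of -0.29 ± 0.14 (log2, SE) that missed the threshold. It fell by 0.58 ± 0.14 (log2, SE) in c-Kit-high and by 0.62 ± 0.14 in Rag2-null cells, and the labels do not say which part of the gene the floxed allele removes, so the value over the whole model is a weak check. In pre-pro-B cells Ikzf1 ran from 106 to 145 RPKM in the 8 controls and from 23.7 to 60.6 in the 8 knock-down libraries. RNA of myeloid genes was present in some groups. The summed RPKM of 18 matched myeloid markers was 7593 and 7914 in the pre-B libraries, 158 to 715 in c-Kit-high controls and 214 to 368 in c-Kit-high deleted libraries, against 12.1 to 63.1 in Rag2-null and 18.9 to 31.0 in total pro-B libraries. The granulocyte gene S100a9 was at 0 in every total pro-B, Rag2-null and pre-pro-B library. In RNA from many cells, fewer cells of a type and less RNA per cell cannot be told apart.

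Promoter sequence is shown for Foxo1, Ebf1, Irf8 and Bach2, the 4 members that were called after Ikzf1 deletion both in total and in c-Kit-high pro-B cells. The windows are the 250 bases before an annotated start, from RefSeq on GRCm38.p6, while the deposited values used mm9 per the submitters' processing notes. Capitals mark matches to 1 of 6 motifs, searched on both strands: the EBF1 site (TCCC, any 2 bases, then GGGA), the Ikaros core TGGGAA, the FOXO site TGTTTAC, the E-box CAGGTG, the octamer ATTTGCAT and the IRF site (GAAA, any 2 bases, then GAAA). The EBF1 site and the Ikaros core can share bases, and did not in these windows. The Foxo1 window (chr3:52268087-52268336, plus strand) holds an EBF1 match from 92 to 83 bases before the start.
Foxo1: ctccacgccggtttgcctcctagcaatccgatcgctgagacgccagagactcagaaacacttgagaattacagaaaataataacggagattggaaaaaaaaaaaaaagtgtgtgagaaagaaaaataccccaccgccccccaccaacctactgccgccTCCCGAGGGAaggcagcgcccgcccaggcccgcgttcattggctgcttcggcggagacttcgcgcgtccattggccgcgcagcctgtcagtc
Ebf1 has 2 annotated starts, and their windows (chr11:44617850-44618099 and chr11:44619978-44620227, plus strand) hold 1 IRF match and 1 Ikaros core match.
Ebf1, first start: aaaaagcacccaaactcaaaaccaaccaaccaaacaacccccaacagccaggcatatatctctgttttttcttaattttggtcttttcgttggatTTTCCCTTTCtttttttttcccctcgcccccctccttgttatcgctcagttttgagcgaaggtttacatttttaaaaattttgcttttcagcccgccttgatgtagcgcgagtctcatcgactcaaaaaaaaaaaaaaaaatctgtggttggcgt
Ebf1, second start: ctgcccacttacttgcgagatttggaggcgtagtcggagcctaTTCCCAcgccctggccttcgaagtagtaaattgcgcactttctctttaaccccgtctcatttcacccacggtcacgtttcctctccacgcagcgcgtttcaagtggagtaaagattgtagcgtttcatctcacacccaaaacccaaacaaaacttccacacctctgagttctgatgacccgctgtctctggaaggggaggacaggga
The window of the first Irf8 start (chr8:120736108-120736357, plus strand) holds no match to the 6 motifs and is not shown. The window of the second Irf8 start (chr8:120738389-120738638, plus strand) holds an Ikaros core match and an E-box match.
Irf8, second start: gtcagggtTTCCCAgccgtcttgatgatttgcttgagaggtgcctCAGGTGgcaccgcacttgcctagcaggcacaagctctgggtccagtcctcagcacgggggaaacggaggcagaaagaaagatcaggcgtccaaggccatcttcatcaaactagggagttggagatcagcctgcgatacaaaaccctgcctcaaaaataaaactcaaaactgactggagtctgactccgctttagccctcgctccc
The Bach2 window (chr4:32417185-32417434, plus strand) holds no match to the 6 motifs.
Bach2: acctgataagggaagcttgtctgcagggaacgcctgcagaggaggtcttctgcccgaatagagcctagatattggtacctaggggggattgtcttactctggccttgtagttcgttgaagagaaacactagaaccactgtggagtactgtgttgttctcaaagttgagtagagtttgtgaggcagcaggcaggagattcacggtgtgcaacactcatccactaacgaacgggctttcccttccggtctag

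Across all 32851 promoter windows of this length, 0.779% held the EBF1 match and 21.6% the Ikaros core. The 10 members have 15 windows. Foxo1 was the 1 member with an EBF1 match, in 1 of the 15 windows. Irf8, Bcl11a, Ebf1 and Sox4 were the 4 with an Ikaros core match, in 4 of the 15 windows. An IRF match was in 2.98% of all windows and in 1 Ebf1 window, an E-box in 17.2% and in 1 Irf8 window, and the FOXO site (3.17%) and the octamer (1.6%) were in none of the 15. A match is a run of letters in the window and does not show that a factor binds there.

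**Figure D1:**
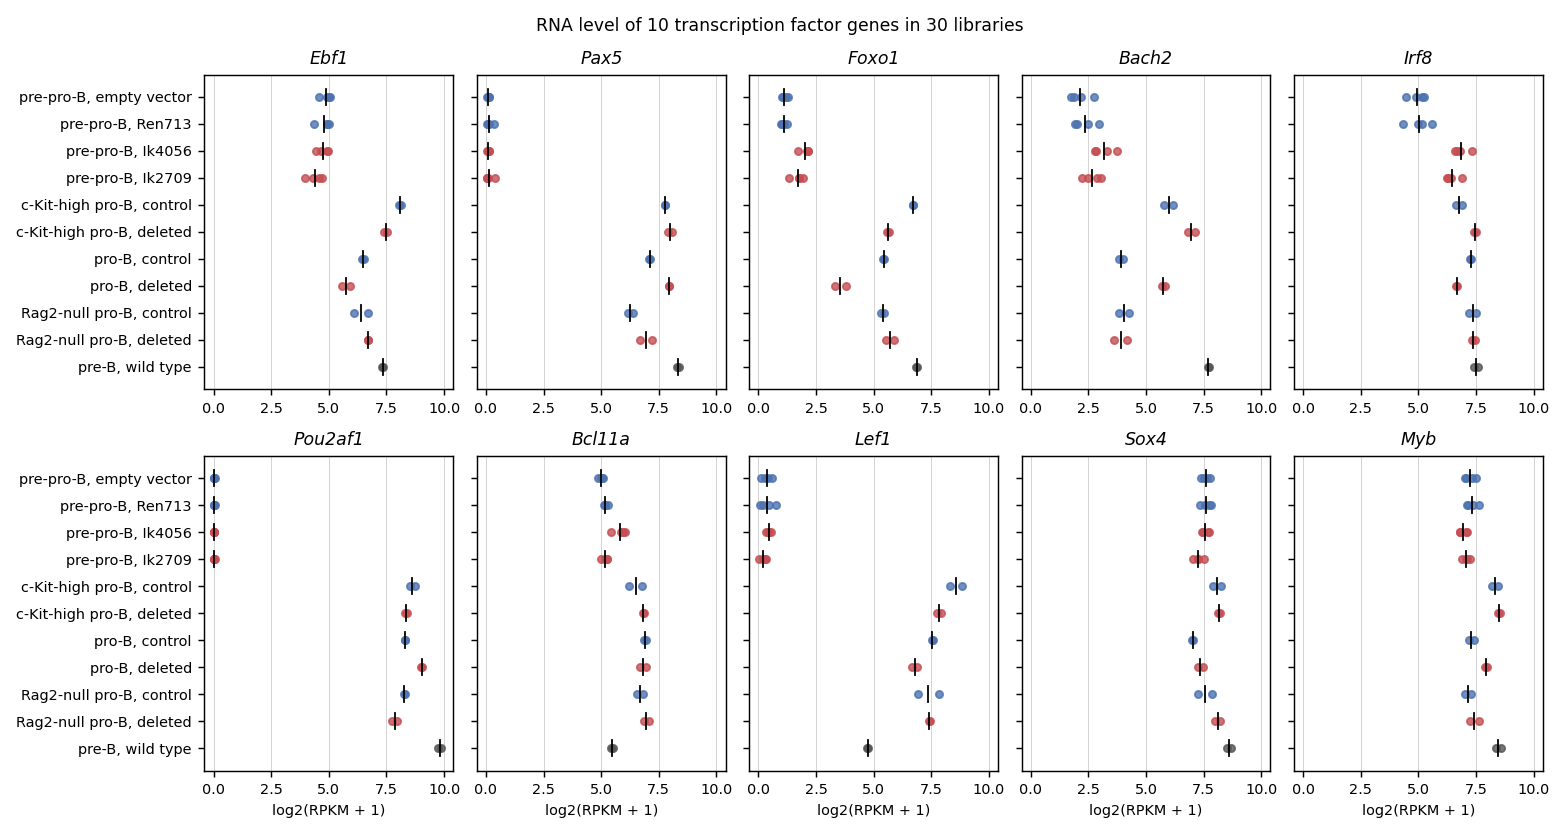
RNA level of each gene, as log2(RPKM + 1) on the horizontal axis, in the 11 groups of libraries. Each point is a library, blue for controls, red for Ikzf1-deleted or knock-down libraries and grey for wild-type pre-B cells, and the bar is the group mean; Pax5, Pou2af1 and Lef1 lie near 0 in all 16 pre-pro-B libraries, while Myb (110 to 198 RPKM) and Sox4 (132 to 224 RPKM) are high there.

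How far the 10 genes were already on before commitment was read from the control pre-pro-B and control pro-B libraries. In Ebf1(-/-) pre-pro-B cells 3 members were near 0, 5 were present at a lower level than in total pro-B cells, Sox4 was higher, and Myb overlapped with total pro-B cells. In this comparison 9 of the 10 members were called at an adjusted p under 0.05, 1 higher and 8 lower in pre-pro-B cells, where 55.5% of all genes tested were called (25.3% higher and 30.1% lower). The 10 had a median log2 difference of -2.05, against -0.06 over all genes tested. Ikzf1 itself was higher in the pre-pro-B controls (1.09 ± 0.23 log2, SE; limma adjusted p = 0.000407). The stages differ in genotype, in source of the cells and in library numbers as well, so stage, genotype, source and preparation cannot be told apart.

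The genes that were near 0 were Pax5, Pou2af1 and Lef1. Pax5 had a lowest, median and highest level of 0.0242, 0.0792 and 0.275 RPKM in the 8 pre-pro-B controls, and 133 and 139 in the total pro-B controls. Pou2af1 was listed at 0 in 4 of the 8 controls and reached 0.0436 RPKM in the others, against 314 and 315 in pro-B cells. Lef1, a mediator of Wnt signalling that also binds early B-cell enhancers, ran from 0.0417 to 0.724 RPKM against 187 and 183. None of these groups overlapped.

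Foxo1 was low but detected, at 1.00 to 1.41 RPKM in the 8 controls against 41.4 and 43.0 in pro-B cells, a difference of -4.32 ± 0.15 (log2, SE; limma adjusted p = 4.09e-17). Irf8 ran from 19.0 to 47.5 RPKM, with a median of 32.7, against 151 and 154, which is -2.29 ± 0.24 (limma adjusted p = 2.14e-08). Bcl11a, a zinc finger repressor, was 28.5 to 37.8 RPKM against 115 and 124, which is -1.82 ± 0.14. Every pre-pro-B control lay below both pro-B controls for these genes. Bach2 was 2.31 to 6.72 RPKM against 13.3 and 15.3, again without overlap.

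RNA of the Ebf1 model was present in the cells that lack EBF1. The 8 controls read 19.7 to 32.1 RPKM, with a median of 29.3, against 86.8 and 91.3 in pro-B cells, which is -1.65 ± 0.19 (log2, SE; limma adjusted p = 8.26e-08). A value over the whole model can include RNA of a disrupted allele, so it does not check the genotype. The genes EBF1 and Pax5 activate were low in these cells: of 20 tested on a list of such targets 19 were lower and 1 was higher than in pro-B cells. Over all genes tested 30.1% were called lower and 25.3% higher. Igll1, a surrogate light chain gene, averaged 0.607 ± 0.177 RPKM (SD, n = 8) against 1383 ± 31.5 (SD, n = 2).

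Myb and Sox4 did not follow the others. Myb, which supports survival of lymphoid precursors, ran from 129 to 198 RPKM in pre-pro-B controls, around the pro-B values of 167 and 144, with a difference of -0.01 ± 0.15 (log2, SE; limma adjusted p = 0.955). Sox4, a high-mobility-group factor needed for pro-B cell survival, was 162 to 224 RPKM against 132 and 126, so all 8 pre-pro-B controls lay above both pro-B controls. Its difference was 0.57 ± 0.15 (limma adjusted p = 0.00275), and the call was lost with quantile normalization, at 0.38 and an adjusted p of 0.0938.

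Among control pro-B cells, those sorted for high c-Kit held more of most members than total pro-B cells. Of the 10 members 8 were called higher and 1 lower, where 50.8% of all genes tested were called (27.8% higher and 23% lower). The median log2 difference of the 10 was 1.03, against 0.08 over all genes. Bach2 read 70.7 and 54.4 RPKM in c-Kit-high controls and 13.3 and 15.3 in total controls, a difference of 2.05 ± 0.20 (log2, SE; limma adjusted p = 1.09e-05). Ebf1 read 281 and 264 against 86.8 and 91.3 (1.60 ± 0.17), and Foxo1 103 and 105 against 41.4 and 43.0 (1.28 ± 0.15). These c-Kit-high values all lay above the total pro-B values. The same held for Pax5, at 219 and 214 against 133 and 139 RPKM (0.66 ± 0.15), and for Lef1, at 451 and 315 against 187 and 183 (1.02 ± 0.24). Sox4 read 308 and 237 against 132 and 126 (1.06 ± 0.18), and Myb 290 and 349 against 167 and 144 (1.03 ± 0.15). Ikzf1 was higher too, at 101 and 124 against 59.2 and 56.4 RPKM (0.94 ± 0.14, limma adjusted p = 0.000222). Foxo1 target genes were higher as well, with 14 of 18 called higher and 1 lower. Pou2af1, at 367 and 422 against 314 and 315 RPKM (0.32 ± 0.11, limma adjusted p = 0.0247), lost its call without c-Kit-high control replicate 2 (adjusted p = 0.169) or without either total control (adjusted p = 0.095 and 0.0998), and with median-ratio scaling (adjusted p = 0.0577).

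Irf8 was the member that was lower, with 119 and 98.7 RPKM in c-Kit-high controls and 151 and 154 in total controls (-0.49 ± 0.13, limma adjusted p = 0.00666), a call lost when all 30 libraries were fitted together (adjusted p = 0.193), with quantile normalization (adjusted p = 0.116) and without c-Kit-high control replicate 2 (adjusted p = 0.0661). Bcl11a, at 108 and 73.2 against 115 and 124, missed the threshold (adjusted p = 0.0556), and was called with median-ratio scaling (adjusted p = 0.0419) and without c-Kit-high control replicate 1 (-0.70, adjusted p = 0.00482). The lower of the 2 Bcl11a values is from replicate 2, the library of 2.3 M reads. The summed myeloid markers were also higher in the c-Kit-high controls, at 158 to 715 RPKM against 20.9 and 21.3, and their part in the differences was not tested. The library numbers of the control groups differ as well, so c-Kit level and preparation cannot be told apart.

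Wild-type pre-B cells differed from total pro-B controls in 9 of the 10 members, 7 higher and 2 lower, where 68.8% of all genes tested were called (31.9% higher and 36.9% lower). Bach2 rose most of the members, from 13.3 and 15.3 RPKM to 209 and 205 (3.77 ± 0.20 log2, SE; limma adjusted p = 1.06e-08). Pou2af1 read 938 and 863 RPKM in pre-B cells, the highest level of any member in any group, against 314 and 315 (1.51 ± 0.11). Lef1 fell by 2.80 ± 0.24 on the log2 scale, to 25.6 and 25.8 RPKM, and Bcl11a fell by 1.44 ± 0.17, to 42.1 and 44.4. The pre-B and pro-B libraries did not overlap for any of these 4 genes, though with 2 libraries per group unchanged genes can lie apart too. The other called members were also higher in both pre-B libraries, Sox4 by 1.58 ± 0.18, Foxo1 by 1.43 ± 0.15, Pax5 by 1.22 ± 0.15, Myb by 1.19 ± 0.15 and Ebf1 by 0.84 ± 0.17. Ikzf1 read 344 and 309 RPKM against 59.2 and 56.4 (2.47 ± 0.14). Irf8, at 167 and 190 RPKM against 151 and 154, missed the threshold (0.22 ± 0.13, limma adjusted p = 0.142), and was called with quantile normalization (adjusted p = 0.0079) and median-ratio scaling (adjusted p = 0.0311). These 2 libraries also held the 7593 and 7914 RPKM of myeloid markers, S100a9 among them with a mean of 2539, and their part in the differences was not tested. The pre-B cells were wild type and the pro-B controls Ikzf1(fl/+) Cd79a(Cre/+). Library numbers differ as well, so stage, genotype and preparation cannot be told apart.

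Between Rag2-null and Rag2-intact control pro-B cells 2 of the 10 members were called, where 31.6% of all genes tested were (10.9% higher and 20.7% lower). Pax5 was lower, at 81.0 and 70.6 RPKM against 133 and 139 (-0.84 ± 0.15 log2, SE; limma adjusted p = 0.00143). Sox4 was higher, at 235 and 153 against 132 and 126 (0.55 ± 0.19, limma adjusted p = 0.0393). The Sox4 call was lost under 7 of the alternatives, and without Rag2-null control replicate 1 the difference was 0.24 (adjusted p = 0.344). Rag2-null control replicate 1 was above replicate 2 for 8 of the 10 members, among them Lef1 (225 against 119 RPKM) and Ebf1 (104 against 67.7). Without that library Lef1 was called, at -0.63 (adjusted p = 0.0268). Foxo1 (-0.05), Bach2 (0.12), Myb (-0.13), Irf8 (0.08), Ebf1 (-0.08), Lef1 (-0.17), Bcl11a (-0.23), Pou2af1 (-0.02) and Ikzf1 (0.03) missed the threshold on the log2 scale, and Pou2af1 was called with quantile normalization (-0.37, adjusted p = 0.0304).

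The next question was which members change when Ikaros is deleted in total pro-B cells. Foxo1 and Ebf1, together with Irf8 and Lef1, fell, and Bach2, Pax5, Pou2af1 and Myb rose. In all 8 of the 10 members were called, 4 in each direction, where 23.4% of all genes tested were called (13.5% higher and 9.89% lower). The median log2 difference was 0.12 over the members and 0.03 over all genes. The labels do not say whether replicates came from separate animals, so a p-value here speaks of the spread among libraries, which may be technical.

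Foxo1 read 41.4 and 43.0 RPKM in controls and 12.9 and 8.98 in deleted libraries. That is a fall of 1.88 ± 0.15 on the log2 scale (SE; limma adjusted p = 3.02e-06), the greatest among the members, and the deleted libraries lay far below the controls. Ebf1 read 86.8 and 91.3 against 59.1 and 46.6, a difference of -0.75 ± 0.17 (limma adjusted p = 0.00609), also without overlap. Its call was lost when control replicate 2 (adjusted p = 0.0502) or deleted replicate 2 (adjusted p = 0.0728) was left out.

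Bach2 read 13.3 and 15.3 RPKM in controls and 50.5 and 55.0 in deleted libraries, a difference of 1.82 ± 0.20 (log2, SE; limma adjusted p = 3.74e-05). Every deleted library was more than every control. Pax5 went from 133 and 139 to 246 and 243 RPKM (0.84 ± 0.15, limma adjusted p = 0.0014), and Pou2af1 from 314 and 315 to 509 and 531 (0.72 ± 0.11, limma adjusted p = 0.000371). Ebf1 and Pax5, which usually rise together as cells commit, thus differed in opposite directions in the same 4 libraries.

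Irf8 read 151 and 154 RPKM in controls and 102 and 98.6 in deleted libraries (-0.60 ± 0.13, limma adjusted p = 0.00427). The groups did not overlap, but the call was lost in a fit of all 30 libraries (adjusted p = 0.183). Lef1 read 187 and 183 against 116 and 102 (-0.76 ± 0.24, limma adjusted p = 0.0401), and that call was lost when any 1 of the 4 libraries was left out, with adjusted p from 0.0896 to 0.19, with no filter (adjusted p = 0.0727) and with quantile normalization (adjusted p = 0.0609). Myb rose from 167 and 144 to 248 and 239 RPKM (0.65 ± 0.15), losing its call without control replicate 2 (adjusted p = 0.0905) or deleted replicate 1 (adjusted p = 0.0541). Sox4, at 132 and 126 against 175 and 153, did not pass the test (adjusted p = 0.225) except with the 4 libraries fitted alone (adjusted p = 0.0313). Bcl11a, at 115 and 124 against 122 and 101, overlapped between the groups.

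Genes known as targets of these factors went both ways, where 13.5% of all genes tested were called higher and 9.89% lower. Of 20 tested genes that EBF1 and Pax5 activate, 3 were higher and 11 lower, with a median of -0.57. Cplx2 fell by 3.00 ± 0.25 (log2, SE), while Fcrla, an Fc receptor-like gene, rose by 3.17 ± 0.28 although it is on the same list. Among 18 Foxo1 target genes 4 were higher and 6 lower. Rag1 fell by 3.61 ± 0.51, to a mean of 0.536 RPKM, and Rag2 differed by -2.60 ± 0.30, while the chemokine receptor gene Ccr7 rose by 2.72 ± 0.20. Of 13 genes that Pax5 represses 4 were higher and 2 lower, and of 7 genes that BACH factors repress Hmox1 was the 1 that was called, lower by 1.39 on the log2 scale. Of 34 other transcription factor genes of B-cell precursors 11 were higher and 5 lower, and the targeted gene Ikzf1, on this list, was not called. Paralogues of the members were mostly not called, with 2 higher, among them Irf4, and 3 lower of 19. These counts moved with the processing, from 2 to 5 higher and 7 to 11 lower for the EBF1 and Pax5 targets, from 3 to 5 and 4 to 6 for the Foxo1 targets, and from 2 to 5 higher for the Pax5-repressed genes. They ran from 6 to 13 higher and 3 to 6 lower for the other factors, and from 2 to 4 and 2 to 5 for the paralogues. The fewest higher were without control replicate 1 for the other factors (6) and for the Pax5-repressed genes (2), and EBF1 and Pax5 targets had 7 lower without control replicate 1 or deleted replicate 2. The summed myeloid markers were 18.9 to 31.0 RPKM in the deleted and 20.9 to 21.3 in the control libraries.

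**Figure D2:**
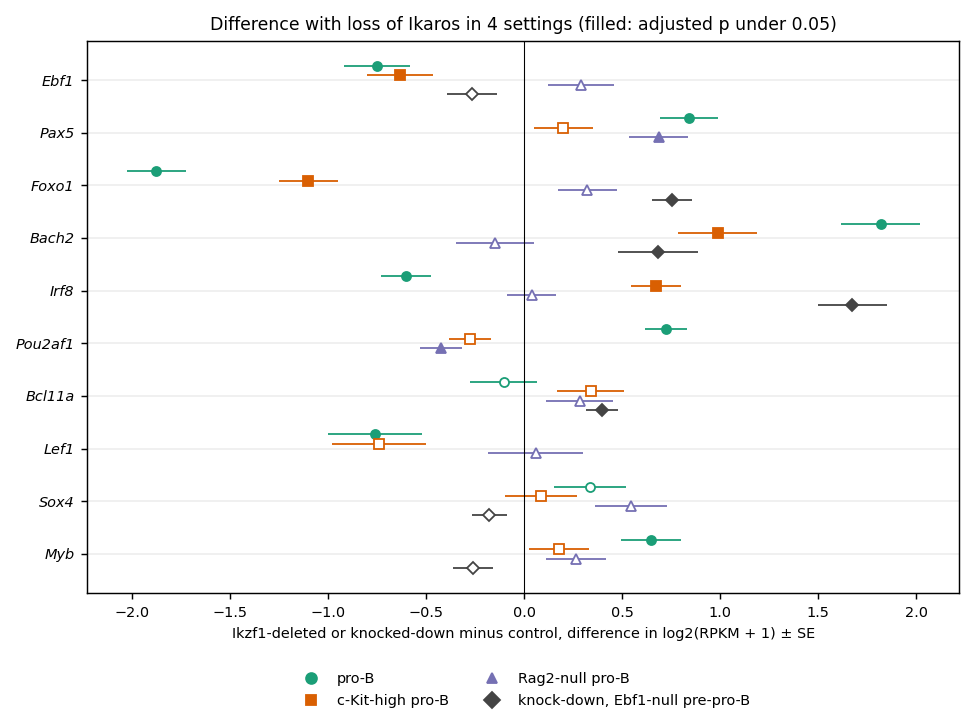
Difference between Ikzf1-deleted or knock-down libraries and their controls in log2(RPKM + 1), with the SE as a bar, for each gene in 4 settings. Filled symbols passed an adjusted p of 0.05. Foxo1 lies at -1.88 in total pro-B cells and at 0.75 in the knock-down. Pax5, Pou2af1 and Lef1 have no knock-down point because they were too low to be tested. The knock-down points are from the fit without run as a block, and with the block all 7 tested members were called.

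In c-Kit-high pro-B cells the deletion was followed by a fall of Foxo1 and Ebf1 and a rise of Bach2, and here Irf8 rose. These were the 4 members called of 10, where 17.2% of all genes tested were called (11.6% higher and 5.6% lower). Control replicate 1 and deleted replicate 2 have consecutive library numbers, and the remaining libraries do not. Deletion and preparation therefore cannot be fully told apart. Within that pair the differences were -1.05 for Foxo1, -0.63 for Ebf1, 0.94 for Bach2 and 0.57 for Irf8 (log2, not tested). Foxo1 read 103 and 105 RPKM in controls and 46.7 and 49.1 in deleted libraries (-1.10 ± 0.15 log2, SE; limma adjusted p = 0.000252). Both deleted libraries were below both controls. Bach2 read 70.7 and 54.4 against 112 and 137 (0.99 ± 0.20, limma adjusted p = 0.00425). Its call was lost in the fit of all 30 libraries (adjusted p = 0.0611) and without deleted replicate 2 (adjusted p = 0.0511).

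Irf8 read 119 and 98.7 RPKM in c-Kit-high controls and 169 and 178 in deleted libraries (0.67 ± 0.13, limma adjusted p = 0.00268), and the groups did not overlap. This call too was lost with all 30 libraries in one fit (adjusted p = 0.148). The summed myeloid markers overlapped between these groups, at 158 and 715 RPKM in controls and 214 and 368 in deleted libraries. Of the 18 markers tested 3 were called higher and 0 lower, where 11.6% of all genes were called higher and 5.6% lower. Their part in the Irf8 difference was not tested. Ebf1 read 281 and 264 against 169 and 182 (-0.64 ± 0.17, limma adjusted p = 0.0203), and leaving out any 1 of the 4 libraries lost the call, with adjusted p from 0.0626 to 0.119, as did the fit of all 30 libraries (adjusted p = 0.0703). Lef1, at 451 and 315 against 211 and 239 RPKM, did not overlap but missed the threshold (adjusted p = 0.0557). It was called under 4 of the alternatives, among them leaving out control replicate 2 (adjusted p = 0.0383).

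Pax5, at 219 and 214 against 234 and 264 RPKM (0.20 ± 0.15, adjusted p = 0.413), and Pou2af1, at 367 and 422 against 312 and 337 (-0.28 ± 0.11, adjusted p = 0.0987), did not pass the limma test here, though Pou2af1 was called with median-ratio scaling (adjusted p = 0.0399). Bcl11a read 108 and 73.2 RPKM in controls and 110 and 115 in deleted libraries (0.34 ± 0.17, adjusted p = 0.207), and was called without control replicate 1 (0.62, adjusted p = 0.0218), which leaves the library of 2.3 M reads as the control. Sox4, at 308 and 237 against 277 and 297, and Myb, at 290 and 349 against 347 and 374, overlapped between the groups. Over all genes tested 11.6% were called higher and 5.6% lower. Of the 20 tested EBF1 and Pax5 targets 2 were higher and 5 lower, the kinase gene Blk among the lower (-2.74 ± 0.31 log2, SE). Of 18 Foxo1 targets 1 was higher and 5 lower, Rag2 among the lower (-1.74 ± 0.30 log2, SE). Pax5-repressed genes were 6 higher and 1 lower of 13, and BACH-repressed genes 2 higher of 7. Under the alternatives the EBF1 and Pax5 targets ran from 4 to 8 lower, the Foxo1 targets from 3 to 8 lower, the Pax5-repressed genes from 3 to 6 higher and the BACH-repressed genes from 0 to 2 higher. Foxo1 targets had 3 lower without control replicate 2 and 3 without deleted replicate 2. Without the 2 libraries of more than 1 step size, an alternative chosen after seeing the data, Ebf1 was not called (-0.65, adjusted p = 0.14).

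When Rag2 was absent, the fall of Foxo1 and the rise of Bach2 were not seen. Of 10 members 2 were called, where 22.3% of all genes tested were called (15.5% higher and 6.84% lower). Foxo1 read 42.9 and 38.8 RPKM in controls and 57.4 and 45.8 in deleted libraries (0.32 ± 0.15 log2, SE; limma adjusted p = 0.157). Bach2 read 18.1 and 13.3 against 11.2 and 17.2, with overlapping groups (-0.15 ± 0.20, limma adjusted p = 0.675). Ebf1, at 104 and 67.7 against 102 and 103, and Irf8, at 180 and 145 against 160 and 172, overlapped as well. So did Lef1, at 225 and 119 against 172 and 169, and Myb, at 156 and 129 against 149 and 195. Bcl11a, at 91.6 and 112 against 133 and 114, did not overlap but missed the threshold (0.28 ± 0.17, adjusted p = 0.278). Without control replicate 1 Ebf1 was called, at 0.59 (adjusted p = 0.0106).

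Pax5 rose, from 81.0 and 70.6 to 101 and 148 RPKM (0.69 ± 0.15, limma adjusted p = 0.00607), with no overlap. Without deleted replicate 2 the Pax5 difference was 0.41 and the call was lost (adjusted p = 0.0651). Pou2af1 fell by 0.42 ± 0.11 on the log2 scale, from 307 and 313 to 215 and 247 RPKM (limma adjusted p = 0.014). With quantile normalization that difference was -0.22 and not called (adjusted p = 0.22), and both calls were lost when the 4 libraries were fitted alone, at adjusted p of 0.088 for Pax5 and 0.0781 for Pou2af1. The Pou2af1 call was also lost without control replicate 2 (adjusted p = 0.0604) or deleted replicate 1 (adjusted p = 0.132). Sox4, at 235 and 153 against 299 and 256 RPKM, did not overlap and just missed the threshold (adjusted p = 0.0528). It was called with quantile normalization (adjusted p = 0.0334) and without control replicate 1 (0.85, adjusted p = 0.00364).

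Genes on the target lists were called in Rag2-null cells as well, where 22.3% of all genes tested were (15.5% higher and 6.84% lower). Among EBF1 and Pax5 targets 2 were higher and 7 lower of 20, Blk (-3.51 ± 0.31) and Bst1 (-3.13 ± 0.20) among the lower. Foxo1 targets were 4 higher and 1 lower of 18, with S1pr1, a receptor for egress from the marrow, higher by 2.22 ± 0.26. Of 13 Pax5-repressed genes 7 were higher and 2 lower, with a median of 0.74. Of 7 BACH-repressed genes 1 was higher. Summed myeloid markers were 58.2 and 63.1 RPKM in the deleted against 12.1 to 31.9 in the control libraries, and their part in these counts was not tested. The paralogue list held 8 higher and 2 lower of 19, Tcf7 (2.00 ± 0.47) among them. Under the alternatives the paralogues ran from 3 to 8 higher and 0 to 2 lower, the Pax5-repressed genes from 4 to 8 and 1 to 2, the EBF1 and Pax5 targets from 1 to 2 and 4 to 8, the Foxo1 targets from 2 to 4 and 0 to 2, and the BACH-repressed genes from 0 to 2 higher. The paralogues had 3 higher without control replicate 2 or deleted replicate 1, and the Pax5-repressed genes 4 without deleted replicate 1.

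**Figure D3:**
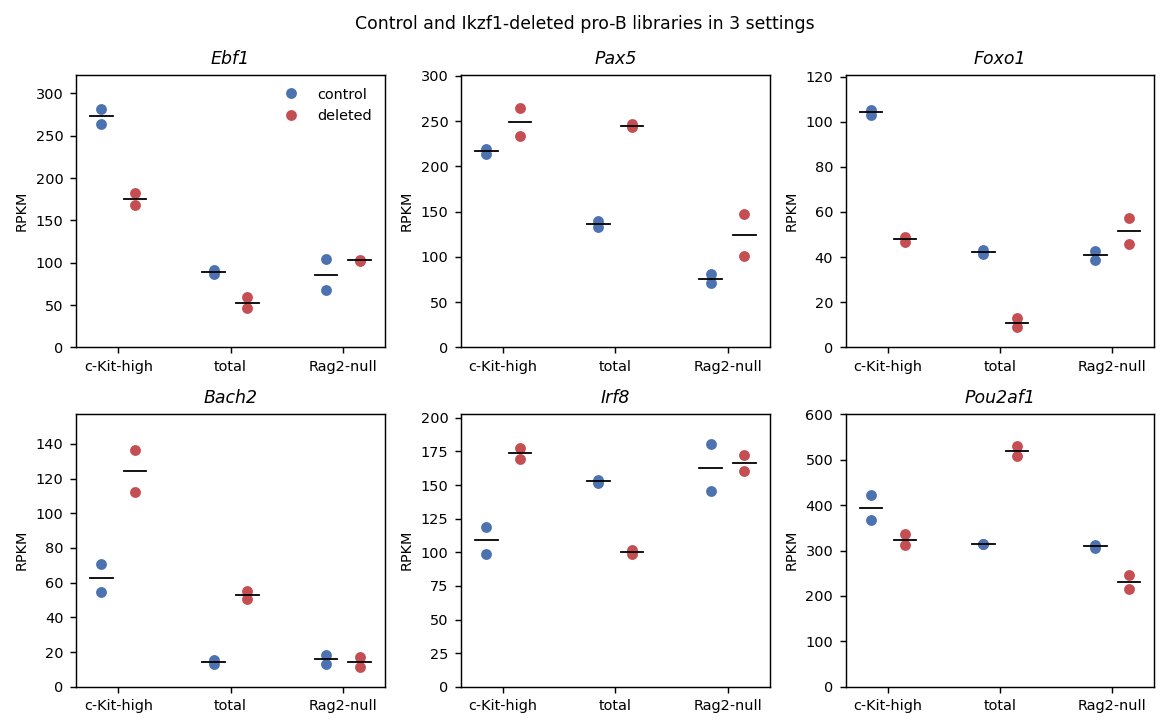
RPKM of 6 genes in control (blue) and Ikzf1-deleted (red) libraries of c-Kit-high, total and Rag2-null pro-B cells, on linear axes from 0, with the bar at the mean of 2 libraries. Foxo1 is lower and Bach2 higher in the deleted libraries of the first 2 settings and neither is called in the third, while Irf8 is higher in c-Kit-high and lower in total pro-B deleted libraries.

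Whether the deletion acted differently between these settings was tested as an interaction in the same fit. Between Rag2-null and total pro-B cells 5 of 10 members differed in their deletion effect, where 13.1% of all genes tested did (8.54% upward and 4.55% downward). The effect on Foxo1 was 2.20 ± 0.21 higher (log2, SE; limma adjusted p = 8.39e-05) and that on Bach2 1.97 ± 0.28 lower (a difference of -1.97, limma adjusted p = 0.000697) in Rag2-null cells. Pou2af1 rose with the deletion in total cells and fell in Rag2-null cells, with a difference of -1.15 ± 0.15 (limma adjusted p = 0.000412). The effect on Ebf1 differed by 1.04 ± 0.24 (limma adjusted p = 0.012), a call lost without control replicate 2 (adjusted p = 0.0526) or deleted replicate 2 (adjusted p = 0.0634) of total pro-B cells, and that on Irf8 by 0.64 ± 0.18 (limma adjusted p = 0.0351). The Irf8 call was lost without any 1 of 7 of the 8 libraries, with adjusted p from 0.0641 to 0.113, in the fit of all 30 libraries (adjusted p = 0.465) and with median-ratio scaling (adjusted p = 0.061). For Pax5 the difference of effects was -0.16 ± 0.21 and missed the threshold (adjusted p = 0.741). Sox4 (0.21), Myb (-0.38) and Bcl11a (0.39) missed it as well, with adjusted p of 0.716, 0.316 and 0.362. Lef1 did too (0.82 ± 0.34, adjusted p = 0.156), but was called without Rag2-null control replicate 1 (1.27, adjusted p = 0.00356). The Rag2-null libraries have other library numbers and an implied depth of 26.5 to 33.8 M reads, against 10.1 to 12.5 M for total pro-B cells, so Rag2 and preparation cannot be told apart.

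Between c-Kit-high and total pro-B cells 3 of 10 members differed in their deletion effect, where 6.7% of all genes tested did (4.54% upward and 2.16% downward). Irf8, which fell in total and rose in c-Kit-high cells, differed by 1.28 ± 0.18 (log2, SE; limma adjusted p = 0.00173), a call lost with all 30 libraries in one fit (adjusted p = 0.0665). Pou2af1 differed by -1.003 ± 0.15 (limma adjusted p = 0.00262). For Foxo1, lower in both settings, the difference of 0.78 ± 0.21 only just passed (limma adjusted p = 0.0494) and was lost under 12 of the alternatives tried. Bach2 (-0.83), Ebf1 (0.11), Lef1 (0.02), Sox4 (-0.25), Myb (-0.47) and Bcl11a (0.44) missed the threshold, with adjusted p of 0.108, 0.837, 0.985, 0.642, 0.241 and 0.324. Pax5 missed it too (-0.64 ± 0.21, adjusted p = 0.1001), but was called when the compared libraries were fitted alone (adjusted p = 0.0258). The effect on Ikzf1 differed by -0.29 (adjusted p = 0.457) here and by -0.33 (adjusted p = 0.368) between Rag2-null and total cells. The 2 interactions share the total pro-B libraries, so they are not independent of each other. The c-Kit-high libraries are scattered in library number, unlike those of total pro-B cells, so c-Kit level and preparation cannot be told apart.

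The knock-down libraries addressed lower Ikzf1 RNA in cells that lack EBF1. Of the 10 members 7 were high enough to be tested, and 4 of them were called, all higher with less Ikaros, where 19.4% of all genes tested were called (13.4% higher and 6.04% lower). Irf8 and Foxo1 were called with each construct alone, and Bach2 and Bcl11a with Ik4056 alone but not with Ik2709 alone. Libraries with the same replicate number fall in runs of consecutive library numbers and varied together. The fits of each construct alone did not take these runs into account. With run as a block all 7 were called, the same 4 higher and Ebf1, Sox4 and Myb lower, where 51.9% of all genes tested were called.

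Irf8 had a lowest, median and highest level of 19.0, 32.7 and 47.5 RPKM in the 8 controls and of 73.6, 99.0 and 160 in the 8 knock-down libraries. Every knock-down library lay above every control, and the difference was 1.67 ± 0.18 (log2, SE; limma adjusted p = 4.43e-06). It was 1.88 with Ik4056 alone and 1.47 with Ik2709 alone, and from 1.38 to 2.11 within the 4 runs. The 18 matched myeloid markers were higher in the same libraries, at 644 to 1511 RPKM summed against 79.3 to 206 in the controls, with S100a8 and S100a9 at 0 in all 16. Irf8 is also a gene of myeloid precursors, and the part of those markers in its difference was not tested.

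Foxo1 ran from 1.00 to 1.41 RPKM in controls, with a median of 1.12, and from 1.48 to 3.51 with the knock-down, with a median of 2.65. The groups did not overlap, and the difference was 0.75 ± 0.10 (limma adjusted p = 4.7e-05). Against the fall after deletion in total pro-B cells its sign was opposite. Even so the highest knock-down value was far under the 41.4 and 43.0 RPKM of control pro-B cells.

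Bach2 ran from 2.31 to 6.72 RPKM in controls and from 3.73 to 12.4 with the knock-down, with overlap, a difference of 0.68 ± 0.20 (limma adjusted p = 0.0259). It was higher in all 4 runs, by 0.55 to 0.74. With Ik2709 it read 6.27, 3.73, 4.59 and 7.24 RPKM in runs 1 to 4, each above both controls of its run. The call was lost with Ik2709 alone (0.43, adjusted p = 0.387) and with Ren713 as the only control (adjusted p = 0.157), and without any 1 of 8 libraries. These were replicates 2 and 3 of both controls and replicates 1 and 4 of both constructs, with adjusted p from 0.0522 to 0.0604. With run as a block the same difference had an SE of 0.06 and was called (limma adjusted p = 1.54e-08).

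Bcl11a read 63.4, 57.2, 42.3 and 61.0 RPKM with Ik4056 and 37.2, 36.5, 30.3 and 35.0 with Ik2709, against 28.5 to 37.8 in the controls. Only the Ik4056 libraries lay above every control. The joint difference was 0.40 ± 0.08 (log2, SE; limma adjusted p = 0.0021), but 0.72 with Ik4056 and 0.07 with Ik2709 (adjusted p = 0.84). With Ren713 as the only control it was 0.30 and not called (adjusted p = 0.0569). Bcl11a was the 1 member of 7 that differed between the constructs, by -0.66 ± 0.12 (limma adjusted p = 0.00326), where 3.33% of all genes tested differed (0.707% higher and 2.62% lower with Ik2709). With run as a block 6 of the 7 differed, all but Myb and each lower with Ik2709, where 22.4% of genes did. Fitted with the 8 knock-down libraries alone, Bcl11a missed the threshold (adjusted p = 0.0603). The mean Ikzf1 level was 39.9 ± 14.7 RPKM with Ik4056 and 46.0 ± 13.0 with Ik2709 (SD, n = 4).

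**Figure D4:**
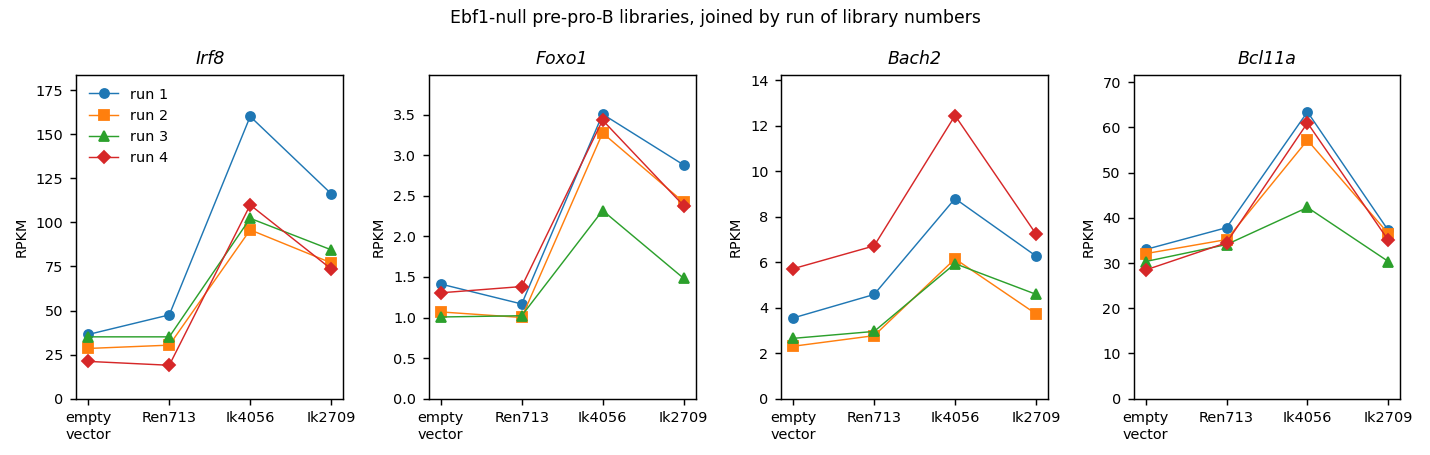
RPKM of Irf8, Foxo1, Bach2 and Bcl11a in the 16 Ebf1(-/-) pre-pro-B libraries, on linear axes from 0. Each line joins the 4 libraries of a run of consecutive library numbers; with Ik4056 all 4 genes are highest in each run, and with Ik2709 Bcl11a returns to 30.3 to 37.2 RPKM.

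Ebf1, Sox4 and Myb leaned the other way. Ebf1 ran from 14.8 to 30.1 RPKM with the knock-down and from 19.7 to 32.1 in controls (-0.27 ± 0.13 log2, SE; limma adjusted p = 0.177). With run as a block the adjusted p was 0.000365, with median-ratio scaling it was 0.0431, and the difference was negative in all 4 runs. Myb ran from 110 to 152 against 129 to 198 RPKM (-0.26 ± 0.10, adjusted p = 0.0879, 3.07e-05 with the block and 0.00581 with median-ratio scaling). Sox4 ran from 132 to 212 against 162 to 224 RPKM (-0.18 ± 0.09, limma adjusted p = 0.213, and 0.00314 with the block). The control and knock-down libraries overlapped for these 3 genes. Pax5 reached 0.296 RPKM, Lef1 0.443 and Pou2af1 0.0492 in the knock-down libraries, and none of them reached a level that could be tested.

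Of the targets of EBF1 and Pax5 only 8 were high enough to be tested in these cells, with 4 higher and 2 lower. Over all genes tested 13.4% were called higher and 6.04% lower. Igll1, at means of 22.3 RPKM with Ik4056 and 3.40 with Ik2709, averaged 12.8 ± 11.4 RPKM with the knock-down and 0.607 ± 0.177 in controls (SD, n = 8; 2.61 ± 0.17 log2, SE), and Cd79b, a signalling chain of the B-cell receptor, rose by 1.53 ± 0.14. Both are known as EBF1 targets, and the cells lack EBF1. Of 13 Pax5-repressed genes 8 were higher and 1 lower, with the macrophage receptor gene Csf1r higher by 3.77 ± 0.20. Pax5 was near 0 in controls and knock-down libraries alike, so these counts do not report on repression by Pax5. Csf1r is also on the list of myeloid markers, of which 9 were higher and 2 lower of 12 tested. Of 17 Foxo1 targets 5 were higher and 5 lower, but 10 and 5 with run as a block and 2 and 4 with Ik2709 alone, with Rag1 lower by 0.72 and Rag2 by 1.12 on the log2 scale (-0.72 ± 0.12 and -1.12 ± 0.15). Of 30 other transcription factor genes of B-cell precursors 9 were higher and 6 lower, among them Id1, an inhibitor of E proteins, higher by 2.12 ± 0.15. The targeted gene Ikzf1 is on this list and is among the 6 lower (-1.57 ± 0.17 log2, SE), which the knock-down itself sets. Under the alternatives the counts of this list ran from 6 to 14 higher and from 3 to 8 lower, with 14 and 8 under the block.

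The genes whose pattern over the 30 libraries was most like that of each member are given as a description, by Pearson's r of log2(RPKM + 1). The pre-pro-B libraries differ from the others in stage, genotype, source and library numbers, and which of these r follows cannot be told apart. Depth differs between libraries as well. Pax5 was closest to Pou2af1 (r = 0.996), and over the 14 pro-B and pre-B libraries alone the r of this pair was 0.715. Myb was closest to the interleukin-7 receptor gene Il7r, at 0.964 over 30 and 0.970 over 14 libraries. Bcl11a was closest to Igll1 (0.963) and Vpreb2 (0.962), which encode the surrogate light chain. Ebf1 was closest to Cyth1 (0.974), Foxo1 to Fam53b (0.985), Bach2 to Plekhm1 (0.979) and Lef1 to Car13 (0.989). Sox4 and Irf8 had no such close gene, with Chrnb1 at 0.897 and Hsd17b11 at 0.913, and the r of Irf8 with Hsd17b11 was 0.283 over the 14 libraries.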

How the data were processed

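RNA was measured in 30 of the 48 samples of the series, and the other 18 are chromatin samples that were not analysed here. The submitters' processing notes name TopHat 1.4.1, HTSeq 0.5.3, DESeq 1.8.3 and the mm9 build. Their roles are not given in the sources used here. RPKM values for 21025 gene models in each library were deposited by the authors, and no raw read numbers were used. Current symbols came from the accession for 20661 models and from the symbol for 191. The models of Ebf1 and Pax5 carry identifiers of the submitters' own beside the RefSeq accession. No 2 libraries were identical, over 435 pairs. The implied depth came from the step between low values, at a tolerance of 0.1 read, and only describes the libraries.

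The test was limma 3.58.1 (R 4.3.3), two-sided, with trend and robust moderation, on the log2 of RPKM plus a pseudocount of 1, a scale that understates the change of low genes. A fit took the genes that reached 1 RPKM in 2 or more of its libraries. The 14 pro-B and pre-B libraries gave 11937 genes and 7 residual degrees of freedom, and the 16 pre-pro-B libraries 10744 genes and 12. All 30 libraries together, used for pre-pro-B against pro-B cells, gave 12272 genes and 19. Calls were made at a p under 0.05 after Benjamini-Hochberg adjustment over every gene of the fit. Overlap between groups only describes the libraries. The share of all genes without overlap is not given here, and with 2 libraries per group unchanged genes can lie apart too. The fit was tested on simulated data. Alternatives were a pseudocount of 0.1, no filter, quantile normalization, median-ratio scaling, the compared libraries alone, all 30 libraries, each library left out, and in the knock-down the run as a block, each construct alone and each control alone.

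All 10 members are named in every comparison, with Ikzf1, except between the constructs, where only Bcl11a, Myb and Ikzf1 are named. From each gene list the genes named are among the 3 called genes with the largest difference that did not overlap and averaged 3 RPKM or more in the higher group. The 3 genes most like a member were those with the highest r among genes with a mean of at least 1 RPKM. The members and lists were chosen with earlier results of these data known. Some genes of these lists are not reported here.

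In the pre-pro-B libraries the replicates form 4 runs of consecutive library numbers, and the design text gives 4 replicates with 2 controls and 2 experimental samples each. Deviations from the group means correlated in all 24 same-run pairs (lowest r 0.52, median 0.775, against -0.22 between runs), so the runs pair the libraries. Tables were made with Python 3.11.15 (pandas 2.3.3, numpy 2.4.6) and plots with matplotlib 3.10.9.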

Additional observations from a re-analysis of the deposited data

Results flagged for a closer look

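The effect of deleting Ikzf1 differed between pro-B settings for 5 members by the interaction test. Between c-Kit-high and total pro-B cells the effects differed by 0.78 (log2) for Foxo1, by -1.003 for Pou2af1 and by 1.28 for Irf8. Between Rag2-null and total pro-B cells they differed by 1.04 for Ebf1, by 2.20 for Foxo1, by -1.97 for Bach2, by -1.15 for Pou2af1 and by 0.64 for Irf8. Irf8 and Pou2af1 changed direction between settings, and the calls for Foxo1 between c-Kit-high and total cells and for Ebf1 and Irf8 between Rag2-null and total cells were lost without single libraries, as given above. The Irf8 call between c-Kit-high and total cells was lost with all 30 libraries in one fit (adjusted p = 0.0665).

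In 4 of 40 groups of 4 libraries a single library stood apart from the other 3. All 4 are levels near 0 in pre-pro-B cells, so their number cannot be set against the about 1 in 20 that chance flags. Pax5 was at 0.296 RPKM in 1 Ik2709 library. Pou2af1 was at 0.0435 RPKM in 1 Ren713 library, 0.019 in 1 Ik4056 library and 0.0492 in 1 Ik2709 library, with the other libraries of those 3 groups listed at 0. Where the other libraries are at 0 any value above 0 is flagged, so these Pou2af1 flags were fixed by the floor.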

How the results depend on the processing

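No call among the members changed sign under any alternative. The number of members called moved by over 1.5 times as follows. With all 30 libraries in one fit it was 2 for the c-Kit-high deletion, 1 for Rag2-null against Rag2-intact controls and 1 for the c-Kit-high interaction. With the compared libraries alone limma called 0 for the Rag2-null deletion and 0 between the constructs, with 2 at an unadjusted p under 0.05 in each, and 1 for Rag2-null against intact controls, which also had 1 with no filter. With the replicate block it was 7 for the knock-down and 6 between the constructs, and it was 2 with Ik2709 alone and 2 with Ren713 as the only control.

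With each library left out in turn the number called ran from 5 to 7 for the pro-B deletion, 2 to 4 for c-Kit-high, 1 to 4 for Rag2-null, 3 to 4 for the knock-down, 7 to 10 for c-Kit-high against total controls, 1 to 2 for Rag2-null against intact controls, 2 to 3 for the c-Kit-high interaction and 3 to 6 for the Rag2-null interaction. It stayed at 9 for both stage comparisons and at 1 between the constructs.

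Differences that were not called changed sign in a few cases. Under median-ratio scaling Lef1 (-0.089) and Irf8 (-0.11) did so in the Rag2-null deletion, Ebf1 (0.076), Foxo1 (0.11), Myb (0.030) and Pou2af1 (0.14) in Rag2-null against intact controls, and Myb (0.085) in pre-pro-B against pro-B cells. Under quantile normalization Irf8 (-0.14) did so in Rag2-null against intact controls and Lef1 (-0.027) in the c-Kit-high interaction. An alternative chosen after seeing the data, without the 2 c-Kit-high libraries of more than 1 step size, turned Myb to -0.010 in the c-Kit-high deletion. With single libraries left out, the ranges that crossed 0 were -0.24 to 0.027 for Bcl11a in the pro-B deletion, -0.11 to 0.28 for Sox4 in the c-Kit-high deletion, and in the Rag2-null deletion -0.017 to 0.59 for Ebf1, -0.44 to 0.14 for Bach2, -0.40 to 0.51 for Lef1 and -0.12 to 0.19 for Irf8. In Rag2-null against intact controls they were -0.39 to 0.22 for Ebf1, -0.12 to 0.023 for Foxo1, -0.089 to 0.33 for Bach2, -0.63 to 0.28 for Lef1, -0.27 to 0.0094 for Myb and -0.072 to 0.24 for Irf8. For Myb in pre-pro-B against pro-B cells it was -0.12 to 0.093. In the interactions they were -0.053 to 0.28 for Ebf1 and -0.24 to 0.28 for Lef1 (c-Kit-high), and -0.43 to 0.12 for Pax5 and -0.10 to 0.52 for Sox4 (Rag2-null). The cause was not tested.

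Over all genes the number called ran from 1254 to 5575 for the knock-down (2086 as reported) and from 163 to 2407 between the constructs (358), both highest with the block. The lowest numbers elsewhere were 1688 against 2791 for the pro-B deletion, 1322 against 2049 for c-Kit-high, 1547 against 2667 for Rag2-null, 1954 against 3777 for Rag2-null against intact controls, and 327 against 800 and 918 against 1562 for the c-Kit-high and Rag2-null interactions. Scaling moved the balance of calls: from 1381 higher and 668 lower to 1269 and 1135 (quantile) in the c-Kit-high deletion, from 1850 and 817 to 1452 and 1419 (median-ratio) in the Rag2-null deletion, from 1437 and 649 to 1255 and 1109 (quantile) in the knock-down, from 76 and 282 to 135 and 228 (quantile) between the constructs, and from 1301 and 2476 to 2058 and 1763 (median-ratio) in Rag2-null against intact controls. The median of all genes in the Rag2-null deletion moved from 0.06 to -0.07 (quantile), and in Rag2-null against intact controls from -0.08 to 0.02 (median-ratio). The depth of 4 libraries could not be resolved, 1 library had 2.3 M reads, and groups of 2 leave each deletion result to 4 libraries.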
